A study of Mus musculus with 8 samples.

Results

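The respiratory chain and ATP synthase of the mitochondrion are built from subunits of mixed origin, and the nuclear-encoded share of them was followed here across single mouse bone marrow cells. Members were all genes whose symbol begins with Ndufa, Ndufb, Ndufc, Ndufs or Ndufv and a digit (complex I), is Sdha, Sdhb, Sdhc or Sdhd (complex II), begins with Uqcr (complex III), begins with Cox4 to Cox8 (complex IV), or begins with Atp5 (complex V). The rule reads names and no measured value, and it found 85 of the 32285 genes in the count table. Of these, 38 belonged to complex I, 4 to complex II, 8 to complex III, 18 to complex IV and 17 to complex V.

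Complex I takes electrons from NADH and complex II takes them from succinate. Both pass them through coenzyme Q to complex III, from there cytochrome c carries them to complex IV, which reduces oxygen, and complex V uses the proton gradient built on the way to make ATP. Most subunits are coded in the nucleus and imported, while a small set of core subunits is coded by mitochondrial DNA. Mature neutrophils are known for living mainly on glycolysis and for holding few mitochondria, whereas their dividing precursors in the marrow respire.

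Whole bone marrow cells were kept for 1 week on irradiated AFT024 cells, a fibroblast line from mouse embryonic liver that serves as a feeder layer, in long-term culture medium with hydrocortisone. The culture held either this medium alone (media control) or deoxycholic acid, a bile acid that intestinal bacteria make from a primary one, at 35 µM. Lineage-negative cells were then sorted from both cultures and captured with a 10x Genomics 3′ kit. Strain, sex and age of the mice are not stated in the labels. The labels list 4 samples in each group, but the cell names carry only the group, so each group entered as 1 library. No test or p-value was therefore computed. The intervals given are exact 95% binomial intervals that cover counting error only, and a difference between libraries has no replicate check.

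After filtering, 8495 media control and 7755 deoxycholic acid cells were kept, with a median of 18831 and 14424 unique molecular identifiers (UMIs, each standing for 1 captured transcript) per cell. Only 25 barcodes occurred in both libraries. Cells were placed along neutrophil maturation by 3 genes, each with a threshold of 10 UMIs per 10000 in a cell: Elane (neutrophil elastase, made in promyelocytes), Ngp (neutrophilic granule protein, made at the next step) and Retnlg (resistin-like gamma, made late). The stages were Elane alone (1044 media control and 950 deoxycholic acid cells), Elane and Ngp (2825 and 2422), Ngp alone (3437 and 3400) and Retnlg without Elane (559 and 467). Cells below all 3 thresholds (623 and 513) were kept apart. Genes that the thresholds did not use differed between the stages. In the media control library the primary granule gene Mpo was at 1737, 665, 30.4 and 56.2 UMIs per 1000000 (CPM), lowest in the Ngp stage. Ltf (lactoferrin, a secondary granule protein) was at 17.0, 109, 2303 and 4423 CPM, highest in the Retnlg stage. The chemokine receptor gene Cxcr2 was at 1.14, 1.35, 22.0 and 157 CPM. Fixed sets of stage markers, each holding its threshold gene, were summed in the same library. The 5 Elane stage markers were at 21739, 14212, 1262 and 355 CPM and the 6 Ngp stage markers at 2440, 25097, 66247 and 58442 CPM. The 6 Retnlg stage markers were at 44.0, 57.2, 384 and 5442 CPM. Stromal markers (Col1a1, Col1a2, Col3a1, Sparc) summed to at most 5.8 CPM in any of the 4 stages, and monocyte markers to between 1080.4 and 1379 CPM with no steady change along them. Basophil markers were concentrated in the cells below all 3 thresholds, at 1977 and 1613 CPM.

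Of the 85 members, 78 reached 20 CPM and 50 UMIs in at least 1 side of the comparison of the libraries over all cells and of the Retnlg with the Elane stage, and 7 did not. Within single stages fewer did: the libraries could be compared for 77 members in the Ngp stage (without Cox6b2) and for 75 in the Retnlg stage (without Cox6b2, Ndufv1 and Sdhd). The 7 are subunit isoforms known mainly from other tissues or conditions. Cox7b2, Cox8b and Cox8c had no UMI in either library, which allows up to 0.018 CPM in the media control and 0.0255 CPM in the deoxycholic acid library. The heart and muscle forms Cox7a1 and Cox6a2 were at 2.67 and 3.99 CPM and at 0.559 and 0.697 CPM. Cox4i2, the form of subunit 4 known from lung, was at 1.3 and 0.722 CPM, beside 1108 and 1026 CPM for the common form Cox4i1. Ndufa4l2, a hypoxia-induced relative of Ndufa4, was at 0.349 and 0.433 CPM, beside 830.4 and 716 CPM for Ndufa4. Cox6b2, known from testis, did pass, at 25.8 and 22.6 CPM, beside 697 and 653 CPM for Cox6b1. The common forms Cox6a1 (441 and 422 CPM), Cox7a2 (752 and 716 CPM), Cox7b (626 and 590.1 CPM) and Cox8a (1198 and 1080.5 CPM) were all counted in both libraries. UMI counts were not scaled for length, so these pairs are printed side by side and not ranked.

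Along maturation the members' transcripts went from 4.17% of all UMIs in the Elane stage of the media control library to 3.52% in the Elane and Ngp stage, 2.14% in the Ngp stage and 1.40% in the Retnlg stage. In the deoxycholic acid library the same shares were 4.27%, 3.50%, 2.10% and 1.33%. Both libraries thus showed the same order of stages at each step, and the sum was 2.97-fold lower in the Retnlg than in the Elane stage of the media control library and 3.20-fold lower in the deoxycholic acid library. Counted per cell, the members gave 1126, 846, 344 and 108 UMIs in the media control library and 852, 657, 271 and 83.3 UMIs in the deoxycholic acid library, a 10.5-fold and a 10.2-fold difference between the first and the last stage. The cells themselves also held fewer UMIs at later stages, with medians of 26190 and 18571 in the Elane stage against 6427 and 5684 in the Retnlg stage. The difference was spread over the cells of a stage: the median cell had 4.22% of its UMIs in members in the Elane stage (5th to 95th percentile 3.49% to 5.13%) and 1.30% in the Retnlg stage (0.883% to 1.82%) of the media control library. In the deoxycholic acid library the median cell was at 4.30% (3.42% to 5.16%) and 1.25% (0.866% to 1.92%), so that in both libraries the 5th percentile of the first stage lay above the 95th percentile of the last.

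**Figure D1:**
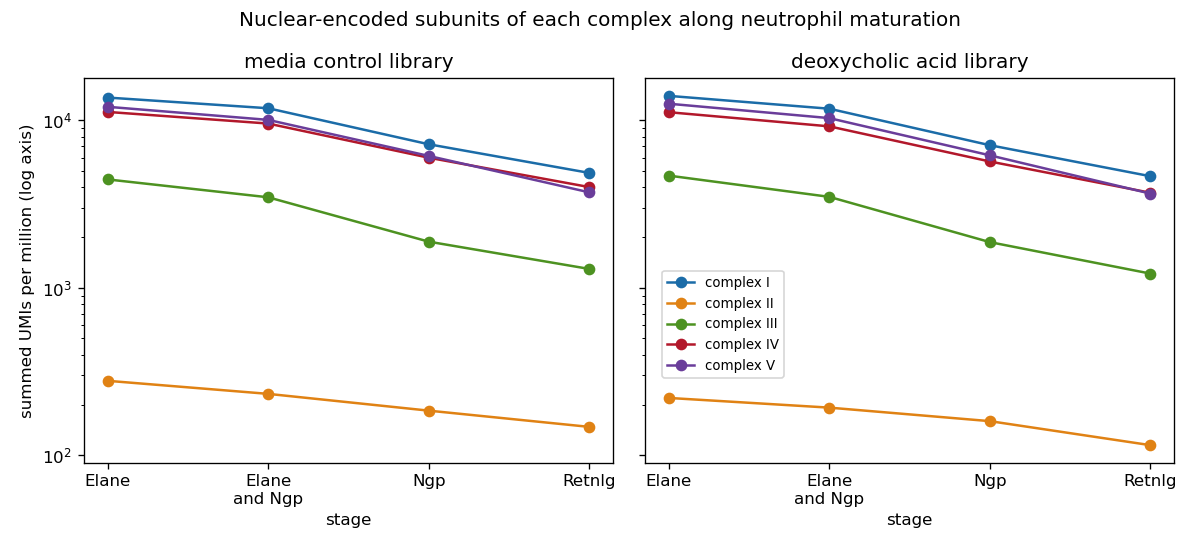
Summed CPM (log axis) of the members of each complex in the 4 stages of maturation, 1 panel per library, each point being 1 library's sum over the cells of a stage. All 5 complexes are lower at each later stage in both libraries, with complex II far below the others and differing least between the first and last stage.

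Gene by gene, 58 of the 78 members in the media control library and 63 of 78 in the deoxycholic acid library were at least 2-fold lower in the Retnlg than in the Elane stage (log2 ratio of CPM of -1 or less), and 0 were 2-fold higher. The background over all genes that met the same minimum was 37.2% lower and 24.8% higher in the media control library, and 36.0% lower and 25.7% higher in the deoxycholic acid library. The members' median log2 ratio was -1.67 and -1.70, and the median of all genes was -0.39 and -0.31. In the media control library 71 members and in the deoxycholic acid library 72 were lower at each of the 3 steps from stage to stage (91.0% and 92.3%), beside 40.3% and 39.4% of the 5264 genes with the minimum level in both libraries. Of the members 69 were so in both libraries (88.5%, beside 36.4% of all genes). The 50 most abundant genes, none of them a member, took up a larger part of the total at later stages. In the media control library they held 24.3% of UMIs in the Elane and 49.3% in the Retnlg stage. Leaving these 50 genes out of the total moved the median of all genes to 0.19 and 0.23, turned the background to 25.8% lower and 34.8% higher in the media control library and to 25.8% lower and 35.6% higher in the deoxycholic acid library, and put the members' medians at -1.10 and -1.16. A change of total moves every gene by the same amount, and the difference between the members' median and that of all genes, -1.29 and -1.39, cannot respond to it.

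Transcript length moved with this ratio across all genes. Genes with longer annotated transcripts had higher Retnlg over Elane ratios (Spearman rho 0.36 over 5429 genes and 0.37 over 5451 genes of the 2 libraries, which share each library's depth and are no replicates), whereas within the members the correlation was 0.07 and 0.16 over 77 genes. The members are short, with a median of 765 bases against 2649.5 bases for all genes with the minimum level in the comparison of the libraries. Taking the median of genes of like length from each ratio brought the members' median to -0.17 and -0.14. It left 8 members of the media control and 12 of the deoxycholic acid library 2-fold lower. These were 10.4% and 15.6% of the members, below the 26.2% and 26.5% of all genes under the same setting. A split at 1000 bases, chosen after these values were seen, sets roughly like lengths side by side. The 50 members of at most 1000 bases had a median ratio of -1.68 and -1.80, beside -1.69 and -1.70 for the 536 and 532 other genes of that length, and -1.49 and -1.55 for those others without ribosomal protein genes. The 27 longer members had a median of -1.66 and -1.36, beside -0.16 and -0.10 for the 4817 and 4849 longer other genes. Atp5g1 counts as longer through a transcript of 4715 bases, an unusual length beside 731 and 723 bases for its paralogues Atp5g2 and Atp5g3. The medians of short members and other short genes were thus close. A larger share of the short members was 2-fold lower, at 82% and 90%. The shares were 67.2% and 69.0% of the other short genes and 61.9% and 64.1% of those without ribosomal protein genes. The short members had a median length of 620.5 bases, shorter than the 766 and 762.5 bases of the other short genes. With the length trend removed, as given above, the members' share was instead below that of all genes. Of the longer members 59.3% and 63.0% were 2-fold lower, beside 33.1% and 31.6% of the longer other genes. The longer members had a median length of 1604 bases (quartiles 1198.5 and 1906), shorter than the 2960 and 3022 bases of the longer other genes. In the bins of other genes over that range, with median lengths of 1110, 1298, 1503, 1710 and 1906 bases in the media control library, the median ratio was -1.60, -1.38, -0.99, -0.85 and -0.33. In the deoxycholic acid library the bins at 1123, 1329, 1538, 1762 and 1949 bases had medians of -1.54, -1.34, -0.96, -0.50 and -0.35. The median of the longer members was below that of each of these bins in the media control library and below all but the bin at 1123 bases in the deoxycholic acid library. The part that length itself plays in the stage ratios was not tested.

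**Figure D2:**
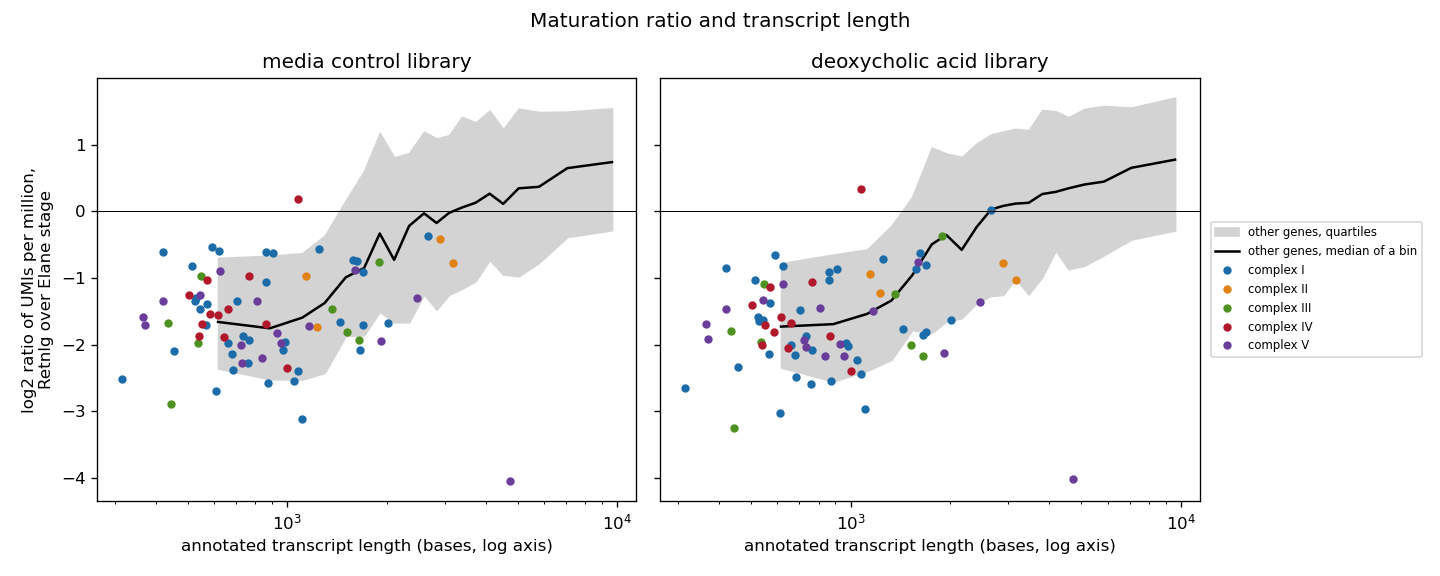
Log2 ratio of CPM in the Retnlg over the Elane stage against annotated transcript length (log axis), 1 panel per library. Points are members coloured by complex, the black line is the median and the grey band the quartiles of all other genes in 20 bins of length. Members lie on both sides of the line, and Cox7a2l is the member above 0 in both panels. The point at 4715 bases is Atp5g1, for which the longest of its best matched transcripts was taken. Atp5g2 and Atp5g3 are at 731 and 723 bases, so the place of Atp5g1 along the length axis is uncertain.

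Complex I, which oxidises NADH, has the most members. Of its 37 members with the minimum level, 26 in the media control library and 27 in the deoxycholic acid library were 2-fold lower in the Retnlg stage, with medians of -1.68 and -1.76, against the 37.2% and 36.0% of all genes given above. Ndufa12, an accessory subunit of the peripheral arm, had the lowest ratio of this complex in the media control library and the next to lowest, after Ndufa4, in the deoxycholic acid library. It was at 400.4, 275, 121 and 46.2 CPM in the media control library and 403, 268, 117 and 51.4 CPM in the deoxycholic acid library over the 4 stages. Its log2 ratio was -3.12 (95% interval -3.33 to -2.91) in the media control library and -2.97 (-3.21 to -2.74) in the deoxycholic acid library, and each stage was below the one before in both libraries. Ndufa4, which is named as a complex I subunit and was later placed with complex IV, was at 1259, 971, 441 and 195 CPM in the media control library and 1166, 847, 394 and 143 CPM in the deoxycholic acid library, with ratios of -2.69 and -3.03.

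At the other end of complex I stood Ndufs1, the large iron-sulfur subunit that takes part in passing electrons from NADH inward. It was at 27.9, 29.2, 27.9 and 21.7 CPM in the media control library and 25.5, 30.5, 30.8 and 26.0 CPM in the deoxycholic acid library, with ratios of -0.37 (95% interval -0.69 to -0.05) in the media control library and 0.03 (-0.34 to 0.38) in the deoxycholic acid library. The last stage lay below the first in the media control library and level with it in the deoxycholic acid library, and the sign of its ratio depended on the library and the total: without the 50 most abundant genes it was 0.21 and 0.56. Other nuclear-encoded core subunits were spread widely, with ratios of -2.55 and -2.23 for Ndufs3, -2.28 and -2.59 for Ndufs7, -1.95 and -2.02 for Ndufs8, -2.07 and -1.86 for Ndufv1 (the flavin-binding subunit that receives the electrons) and -1.70 and -1.81 for Ndufv2. Subunits of 1 enzyme thus differed from each other by more than the counting intervals. Ndufb7, an accessory subunit facing the space between the membranes, was at 571, 657, 529 and 377 CPM in the media control library and 613, 663, 521 and 346 CPM in the deoxycholic acid library and peaked in the second stage of both libraries, with ratios of -0.60 and -0.82.

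Complex II, succinate dehydrogenase, is the enzyme shared by the respiratory chain and the tricarboxylic acid cycle, and all its subunits are coded in the nucleus. Its summed CPM was 279, 233, 185 and 148 over the stages of the media control library and 220.3, 193, 160.1 and 115 in the deoxycholic acid library, a log2 difference from first to last of -0.91 and -0.94, beside -1.57 and -1.68 for all members together. Its share of the members' UMIs went from 0.669% to 1.06% in the media control library and from 0.516% to 0.863% in the deoxycholic acid library. The flavoprotein subunit Sdha, which oxidises succinate, was at 56.5, 55.2, 53.7 and 42.4 CPM in the media control library and 61.4, 64.0, 59.4 and 36.0 CPM in the deoxycholic acid library and had the highest ratio of the 4, at -0.41 and -0.77. Without the 50 most abundant genes in the total its sign flipped in the media control library, to 0.16. The iron-sulfur subunit Sdhb was at 109, 86.9, 65.7 and 55.7 CPM in the media control library and 85.4, 67.0, 50.8 and 44.5 CPM in the deoxycholic acid library, with ratios of -0.97 and -0.94. The membrane anchors Sdhc and Sdhd had ratios of -0.78 and -1.03 and of -1.73 and -1.22. In the media control library 1 of the 4 (Sdhd) and in the deoxycholic acid library 2 of the 4 (Sdhc and Sdhd) were 2-fold lower, beside 37.2% and 36.0% of all genes.

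In complex III, the cytochrome bc1 complex, 6 of 8 members of the media control and 7 of 8 of the deoxycholic acid library were 2-fold lower in the Retnlg stage, with medians of -1.74 and -1.88. The small accessory subunit Uqcr11 had the lowest ratios, at 949.6, 641, 245 and 128 CPM in the media control library and 1191, 763, 286 and 125 CPM in the deoxycholic acid library over the 4 stages. Its ratios were -2.89 (95% interval -3.02 to -2.77) in the media control library and -3.25 (-3.40 to -3.10) in the deoxycholic acid library. Uqcrq, another small subunit, was at 924, 689.8, 367 and 263 CPM in the media control library and 1026, 742, 398 and 256 CPM in the deoxycholic acid library, with ratios of -1.81 and -2.01. Uqcrc2, 1 of the large core proteins, was at 73.4, 62.7, 48.2 and 43.1 CPM in the media control library and 61.3, 53.3, 49.7 and 47.6 CPM in the deoxycholic acid library. Its ratios of -0.77 and -0.36 were the highest of the complex, and without the 50 most abundant genes the ratio in the deoxycholic acid library became 0.17. In every 60-base window of its last 400 bases the annotated Uqcrc2 transcript is shared, on either strand, with the neighbouring gene Pdzd9. The strand of the match was not recorded, so whether the counting of Uqcrc2 reads is affected is uncertain and was not tested. The Rieske iron-sulfur protein Uqcrfs1, which passes electrons to cytochrome c1, had ratios of -1.47 and -1.24.

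Complex IV, cytochrome c oxidase, had 12 members with the minimum level, of which 10 in the media control library and 11 in the deoxycholic acid library were 2-fold lower, with medians of -1.55 and -1.69. Cox8a, the common form of the smallest subunits, was at 1625, 1370.1, 769 and 503 CPM in the media control library and 1550.2, 1255, 696 and 476 CPM in the deoxycholic acid library, with ratios of -1.69 and -1.70. Cox4i1, the common form of the regulatory subunit 4, was at 1431, 1165, 839.8 and 729 CPM in the media control library and 1376, 1088, 776 and 656 CPM in the deoxycholic acid library and had ratios of -0.97 and -1.07, close to the threshold of -1. Cox7b had the lowest ratios of the complex, at -2.36 and -2.39, and Cox6a1 (-1.03 and -1.13), Cox6b1 (-1.55 and -1.59) and Cox6b2 (-1.54 and -1.81) lay between these.

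A single member of the 78, Cox7a2l, was higher in the Retnlg than in the Elane stage in both libraries. Its product, a relative of Cox7a2, is known for joining complexes III and IV into supercomplexes rather than as a regular subunit. Cox7a2l was at 171, 133, 130.0 and 195 CPM in the media control library and 147, 117, 121 and 186 CPM in the deoxycholic acid library, lowest in the middle stages and highest in the last. Its ratio was 0.19 (95% interval 0.08 to 0.29) in the media control library and 0.34 (0.21 to 0.48) in the deoxycholic acid library, above 0 under every other total tried (0.05 to 0.88) and below the 2-fold threshold in both libraries; per cell it was lower, at -1.63 and -1.33. Cox7a2 itself was at 894, 881, 567 and 322 CPM in the media control library and 915, 836, 531 and 287 CPM in the deoxycholic acid library, with ratios of -1.47 and -1.67. In CPM the 2 paralogues thus differed in direction in each library. In UMIs per cell both were lower in the Retnlg stage, and with the length trend removed Cox7a2 came to 0.19 and 0.0633, on the same side of 0 as Cox7a2l.

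The start regions of Cox7a2 (chr9:79759854-79760103) and Cox7a2l (chr17:83514334-83514583) are printed to show the sequence before 2 paralogous genes with unlike stage patterns. Both are the 250 bases before the RefSeq transcript start, build GRCm38.p6, minus strand, 5′ to 3′. Capitals mark matches to the letters searched: GCGCATGCG for NRF1, CCGGAAG for ETS factors, AAGATGGCG for YY1 and GGGCGG for Sp1, on both strands.
Cox7a2: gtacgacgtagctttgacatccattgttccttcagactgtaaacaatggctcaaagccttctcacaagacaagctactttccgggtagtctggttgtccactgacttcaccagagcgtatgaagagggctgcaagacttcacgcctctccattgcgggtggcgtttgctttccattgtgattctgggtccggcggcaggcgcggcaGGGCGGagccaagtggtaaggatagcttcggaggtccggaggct
Cox7a2l: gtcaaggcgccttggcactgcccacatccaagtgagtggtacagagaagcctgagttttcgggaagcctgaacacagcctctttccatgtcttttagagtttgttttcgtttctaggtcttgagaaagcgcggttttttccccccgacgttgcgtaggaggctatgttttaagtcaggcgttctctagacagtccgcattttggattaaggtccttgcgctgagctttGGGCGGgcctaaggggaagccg
Each holds 1 match, GGGCGG on the strand of the gene, at 44 to 39 bases before the start in Cox7a2 and 22 to 17 bases before it in Cox7a2l. These letters occur in 45.8% of the promoters of coding genes of this length, and in 36.2% of the 69 members that have an entry.

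Complex V, ATP synthase, had 17 members, of which 15 in the media control and 16 in the deoxycholic acid library were 2-fold lower, with medians of -1.73 and -1.92. The lowest ratio of all 78 members was that of Atp5g1. It is 1 of 3 genes (Atp5g1, Atp5g2 and Atp5g3) that code for the same mature c subunit, the protein of the rotating membrane ring, each with its own import sequence. Atp5g1 was at 1364, 909.5, 304 and 82.0 CPM in the media control library and 1290.0, 839.7, 276 and 79.5 CPM in the deoxycholic acid library. Its ratio was -4.05 (95% interval -4.21 to -3.90) in the media control library and -4.02 (-4.21 to -3.83) in the deoxycholic acid library, a 16.6-fold and a 16.2-fold difference in CPM, while the fold in UMIs per cell was 58.5 and 51.8. Atp5g2 was at 729, 593, 295 and 150.1 CPM in the media control library and 507, 403, 208 and 124 CPM in the deoxycholic acid library, with ratios of -2.28 and -2.03. Atp5g3 was at 791, 656, 393 and 197 CPM in the media control library and 671, 554, 331 and 176 CPM in the deoxycholic acid library, with ratios of -2.01 and -1.93. Atp5g1 thus had a lower ratio than either other gene for the c subunit, by more than the counting intervals, in each library. Almost all windows of the end of Atp5g2 (98.8%) are shared with the annotated pseudogenes Gm10175 and Gm10231, so its counts are uncertain.

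The start regions of the 3 genes for the c subunit, whose coding product is the same and whose stage ratios are not, were at chr11:96075632-96075881, chr15:102671048-102671297 and chr2:73911327-73911576, all on the minus strand (RefSeq, GRCm38.p6, 250 bases before the start, 5′ to 3′, capitals as above).
Atp5g1: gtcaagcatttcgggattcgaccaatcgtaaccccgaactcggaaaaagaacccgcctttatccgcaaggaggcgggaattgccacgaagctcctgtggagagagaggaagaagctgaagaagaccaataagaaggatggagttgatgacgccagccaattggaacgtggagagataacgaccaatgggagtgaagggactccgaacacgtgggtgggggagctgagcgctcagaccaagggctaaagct
Atp5g2: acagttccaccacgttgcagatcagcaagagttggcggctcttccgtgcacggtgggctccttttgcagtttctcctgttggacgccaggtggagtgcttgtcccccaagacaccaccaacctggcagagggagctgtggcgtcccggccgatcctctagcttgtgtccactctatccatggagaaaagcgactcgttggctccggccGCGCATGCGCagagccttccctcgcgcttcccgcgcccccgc
Atp5g3: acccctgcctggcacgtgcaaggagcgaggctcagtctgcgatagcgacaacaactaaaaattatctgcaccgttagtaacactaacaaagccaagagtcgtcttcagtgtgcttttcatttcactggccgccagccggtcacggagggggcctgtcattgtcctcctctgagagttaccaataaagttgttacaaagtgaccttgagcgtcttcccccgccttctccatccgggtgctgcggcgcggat
Atp5g2 holds the NRF1 letters once on each strand, overlapping in 10 bases between 42 and 33 bases before the start. No match to the 4 searched letter strings is in the windows of Atp5g1 and Atp5g3. Over the members with an entry, the NRF1 letters occurred in 6 of 69 (8.70%; Atp5g2, Atp5k, Atp5l, Cox6a1, Ndufa11 and Ndufa8), beside 2.19% of coding genes. The ETS letters occurred in 12 of 69 (17.4%) beside 10.2%, and the YY1 letters in 1 of 69 (1.45%) beside 0.840%. A match is a description of letters and not a binding site.

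**Figure D3:**
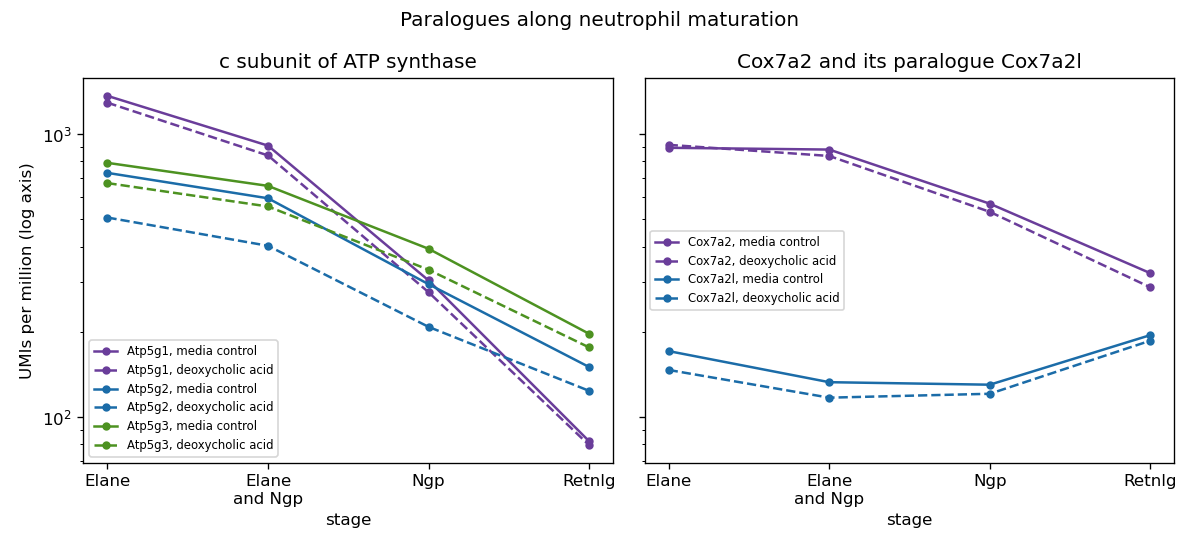
CPM (log axis) of Atp5g1, Atp5g2 and Atp5g3 (left) and of Cox7a2 and Cox7a2l (right) over the 4 stages, solid lines for the media control and dashed lines for the deoxycholic acid library, each point being 1 library. The line of Atp5g1 is the steepest and crosses both other genes for the c subunit, and Cox7a2l is highest in the last stage while Cox7a2 is lowest there.

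The other members of complex V had ratios between those of Atp5g1 and 0, spread more widely than the counting intervals. The catalytic head subunits Atp5a1 (alpha) and Atp5b (beta) had ratios of -1.29 and -1.36 and of -1.95 and -2.13, and the central stalk subunits Atp5c1 (gamma), Atp5d (delta) and Atp5e (epsilon) of -1.73 and -1.50, of -1.83 and -1.99 and of -1.34 and -1.47. Of the outer stalk, Atp5o (the oligomycin sensitivity protein) had ratios of -2.20 and -2.17, while Atp5f1 (subunit b) at -0.88 and -0.76 and Atp5h (subunit d) at -0.90 and -1.08 were the least reduced. Atp5l (subunit g, at the base of the membrane part) was at 1289, 1064, 696 and 539.8 CPM in the media control library and 1364, 1096, 704 and 542 CPM in the deoxycholic acid library, with ratios of -1.26 and -1.33. More than 50% of the windows at the end of Atp5h, Atp5l, Cox7c, Ndufb6 and Ndufs3 are also shared with other annotated genes, mostly pseudogenes. The strand of these matches was not recorded, and the counts of these members are uncertain in the same way.

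**Figure D4:**
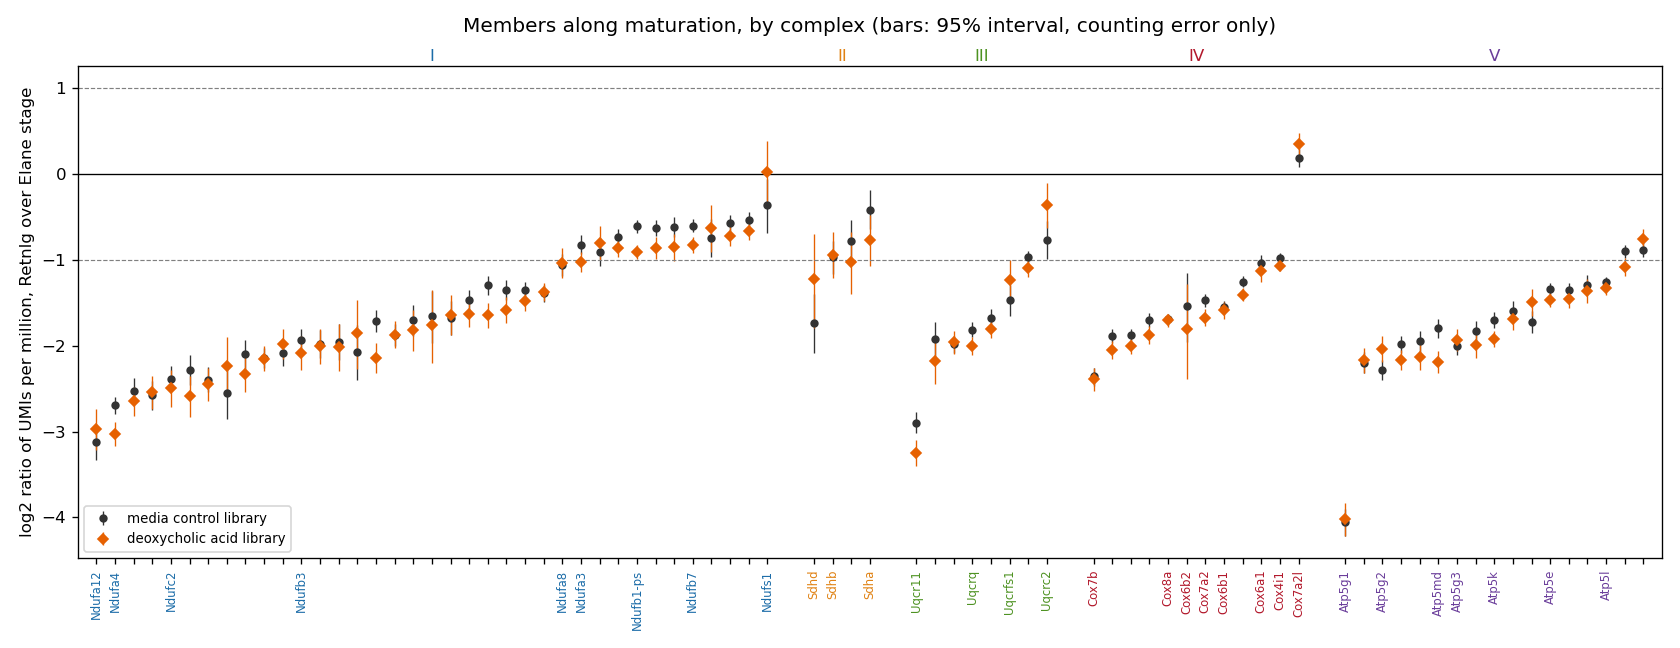
Log2 ratio of CPM in the Retnlg over the Elane stage for the 78 members with the minimum level, ordered within each complex and labelled where the naming rule picked them, circles for the media control and diamonds for the deoxycholic acid library. Bars are exact 95% intervals for counting error, dashed lines mark a 2-fold difference, and Atp5g1 at -4.05 and -4.02 and Cox7a2l at 0.19 and 0.34 are the extremes.

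Other mitochondrial genes were read in the same way from fixed lists. The background for the list counts here and in the next paragraph is the one given above. It was 37.2% of all genes 2-fold lower and 24.8% higher in the media control library. In the deoxycholic acid library it was 36.0% and 25.7%. The length trend was not removed for these lists. The 6 complex I assembly genes with the minimum level were all 2-fold lower in the Retnlg stage of both libraries, with medians of -3.89 and -3.65; Ndufab1, the acyl carrier protein that is also a complex I subunit, was at 461, 319, 126 and 49.6 CPM in the media control library and 354, 230.4, 94.9 and 36.3 CPM in the deoxycholic acid library, and Ndufaf8 had ratios of -2.94 and -2.87. Of the complex II, III and V assembly genes 6 of 7 and 5 of 6 were 2-fold lower (Uqcc2, -2.94 and -2.82, and Fmc1, -3.25 and -3.42), and of the complex IV assembly genes 12 of 17 and 12 of 15. Pet100, which helps to assemble complex IV, was at 189, 184, 165 and 178 CPM in the media control library and 314, 309, 241 and 245 CPM in the deoxycholic acid library, and Cox17, a copper chaperone, had ratios of -0.93 and -0.97. Electron carriers and coenzyme Q genes were 2-fold lower in 5 of 7 in both libraries, among them Cycs (cytochrome c; -2.24 and -2.27) and Etfb (-2.34 and -2.51). The carrier, channel and import genes were 2-fold lower in 15 of 16 in both libraries, including the ADP and ATP exchanger Slc25a5 (-2.27 and -2.06) and Tomm7 (-1.89 and -2.12). The tricarboxylic acid cycle genes gave 10 of 17 and 9 of 16, with Mdh2 at -1.25 and -1.12 and Suclg1 at -1.91 and -2.03.

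The 13 subunits coded by mitochondrial DNA had a smaller median difference between stages than the nuclear-encoded members. They were 2-fold lower in 6 of 12 and 7 of 13 with medians of -0.97 and -1.02, and mt-Co1, the catalytic subunit of complex IV, was at 4351, 4180.3, 4159 and 4191 CPM in the media control library and 5367, 4974, 4825 and 4495 CPM in the deoxycholic acid library. mt-Co3 was at 3915, 3792, 3265 and 2864 CPM in the media control library and 4161, 3839.7, 3288 and 2681 CPM in the deoxycholic acid library. Their summed UMIs equalled 53.1% of the members' UMIs in the Elane stage, 56.9%, 78.1% and 103.7% in the next stages of the media control library, and 54.5%, 58.5%, 82.2% and 104.6% in the deoxycholic acid library. The balance of the 2 genomes' transcripts therefore shifted step by step in both libraries. Regulators of mitochondrial biogenesis showed no common direction (2 of 6 lower and 1 higher, 1 of 5 lower and 1 higher). Tfam, which packages and transcribes mitochondrial DNA, had ratios of -2.06 and -2.03, and Yy1 was at 119, 109, 108 and 119 CPM in the media control library and 126, 116, 115 and 140.1 CPM in the deoxycholic acid library. Of the hypoxia response genes 2 were lower and 3 higher of 9 in the media control library, and 2 lower and 2 higher of 10 in the deoxycholic acid library, with Bnip3l, a receptor for removal of mitochondria, at ratios of 1.68 and 1.78 and Higd1a at -1.56 and -1.63. Cycling markers (Mki67, Top2a, Cdk1) summed to 462, 821, 1244 and 382 CPM over the stages of the media control library, and so did not follow the members.

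The question the cultures pose is what deoxycholic acid does to these cells. Over all kept cells the members summed to 3.13% of UMIs in the media control and 3.06% in the deoxycholic acid library, a log2 ratio of -0.03. The sums of complexes I, III, IV and V differed by -0.03, -0.01, -0.07 and 0.01 on the log2 scale, and that of complex II by -0.29 (-0.31 to -0.26). Per cell the members gave 612 and 464 UMIs, beside the lower depth of the deoxycholic acid library. By gene, the median log2 ratio was -0.09 over the 78 members and 0.04 over the 4670 genes with the minimum level. Of the members, 51 (65.4%) had a ratio below 0 and 27 above, beside 43.0% of all genes below 0, and by complex those below 0 were 24 of 37, 3 of 4, 4 of 8, 11 of 12 and 9 of 17. With a threshold of 0.5 in either direction, 3 members were lower (3.85%) and 2 were higher (2.56%), near the background of 3.17% and 1.69% of all genes.

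The member with the lowest ratio was Sdhd, the small membrane anchor of complex II, at 38.8 and 16.1 CPM, with a log2 ratio of -1.26 (95% interval -1.34 to -1.19). Over the 4 stages it was at 56.5, 41.0, 25.8 and 17.0 CPM in the media control library and 24.8, 17.2, 10.6 and 10.6 CPM in the deoxycholic acid library, and the ratio of deoxycholic acid over media control was -1.19, -1.25, -1.28 and -0.68. The deoxycholic acid library was lower in each stage, but in the Retnlg stage Sdhd did not reach the minimum of 20 CPM, and its ratio there had the widest interval (-1.34 to -0.06). In the cells below all 3 thresholds the ratio was -1.23. Within the same complex Sdhb was at 85.7 and 65.5 CPM (-0.39), Sdhc at 48.5 and 43.6 CPM (-0.15) and Sdha at 54.9 and 61.3 CPM (0.16), so the 4 subunits of 1 enzyme did not share a ratio.

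Atp5g2 was at 511 and 343 CPM, a ratio of -0.57 (95% interval -0.59 to -0.56), and its stage ratios were -0.52, -0.56, -0.50 and -0.28. The other genes for the c subunit were closer to 0, with Atp5g1 at -0.16 and Atp5g3 at -0.27. Ndufc2, a membrane arm subunit of complex I, was at 349 and 237 CPM, a ratio of -0.56 (95% interval -0.58 to -0.54), with stage ratios of -0.47, -0.55, -0.50 and -0.58. These 2 lay just inside the threshold of -0.5 and Ndufa8 (202 and 148 CPM, -0.45), Uqcrfs1 (127 and 94.4 CPM, -0.43) and Ndufb3 (311 and 234 CPM, -0.41) just outside it. Once the trend with transcript length was taken out, Atp5g2 came to -0.41 and Ndufc2 to -0.49. Sdhd, at -1.09, was then the only member lower past the threshold of -0.5.

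In the other direction Atp5k, subunit e of ATP synthase, which takes part in pairing the enzyme, was at 558 and 932 CPM, a ratio of 0.74 (95% interval 0.73 to 0.75). It was at 723, 631, 399.7 and 223 CPM in the media control library and 1275, 1075, 648 and 336 CPM in the deoxycholic acid library over the stages, and the ratios of 0.82, 0.77, 0.70 and 0.60 put the deoxycholic acid library higher in each. Ndufa3, a small membrane subunit of complex I, was at 260.3 and 380.4 CPM, a ratio of 0.55 (95% interval 0.53 to 0.57), with stage ratios of 0.67, 0.55, 0.51 and 0.47. With median-of-ratios scaling Ndufa3 came to 0.495 and 1 member, Atp5k, was left above the threshold. Next were Atp5md (377 and 490.1 CPM, 0.38), another small protein at the base of ATP synthase, and Ndufb1-ps (508 and 651 CPM, 0.36), annotated under a pseudogene symbol.

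**Figure D5:**
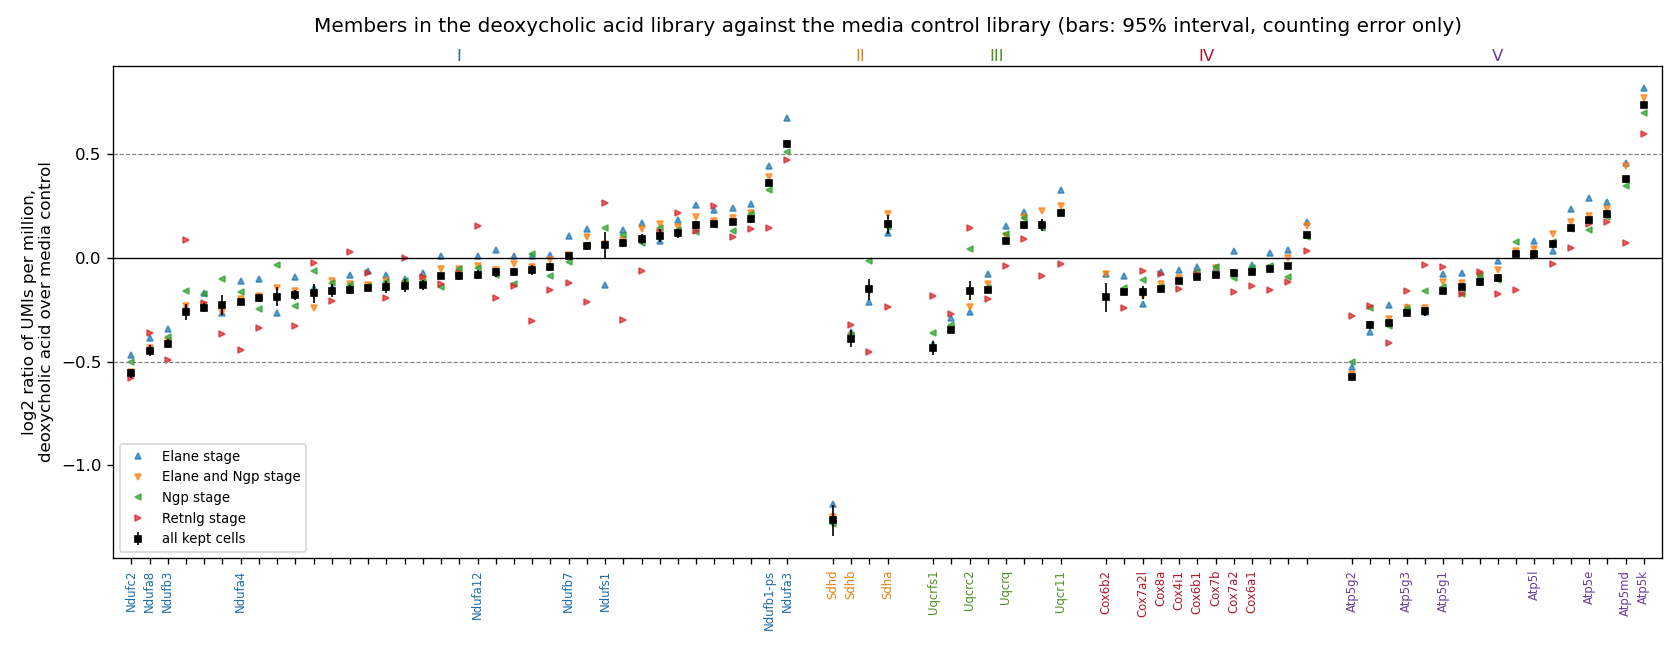
Log2 ratio of CPM in the deoxycholic acid over the media control library for the 78 members, ordered within each complex and labelled where the naming rule picked them. Squares are all kept cells with exact 95% intervals for counting error, triangles the 4 stages, and dashed lines a ratio of 0.5 in either direction. Sdhd at -1.26 and Atp5k at 0.74 stand farthest from 0, with their stage values beside them.

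Of the 75 members with the minimum level in every stage, 52 (69.3%) had 1 sign of this ratio in all 4, beside 61.3% of the 3148 such genes. Those below 0 in all 4 were 36 members (48.0%, beside 26.7% of all genes) and those above 0 were 16 (21.3%, beside 34.6%). In the Retnlg stage, the stage with the fewest UMIs, the intervals of 24 of 75 members lay below 0 and of 6 above. Over all genes with the minimum level there, 468 of 4370 lay below 0 and 657 above. For most members, as for most genes, the sign in this stage was thus within counting error. The members' median was -0.05, -0.07, -0.08 and -0.09 from the Elane to the Retnlg stage, beside -0.02, 0.04, 0.08 and 0.04 for all genes. The stages of a library share its capture and sequencing, so their likeness is no replicate of the treatment.

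Length also moved with the ratio of the libraries over all genes, with a Spearman correlation of 0.45 over 4652 genes, and of -0.28 over 77 members. Other genes of at most 1000 bases had a median ratio of -0.14, the 50 members of that length -0.08, the 27 longer members -0.15 and the longer other genes 0.07. With the trend removed the members' median was 0.02. By shared transcript ends, the 30 members with any window shared with another gene had a median of -0.12 and the 48 without -0.09.

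The lists of other mitochondrial genes gave medians on both sides of 0 between the libraries. The carrier, channel and import genes were at -0.24 (16 genes, 13 below 0), complex I assembly genes at -0.18 (6), electron carriers and coenzyme Q genes at -0.17 (6, all below 0), complex IV assembly genes at -0.15 (12) and complex II, III and V assembly genes at -0.10 (6, all below 0). In 4 of these lists none of the genes with the minimum level passed 0.5. In the complex IV assembly list Cmc1, a copper-binding assembly factor, was at 40.5 and 20.3 CPM, lower past the threshold, and Pet100 at 177 and 281 CPM, with a ratio of 0.67. The tricarboxylic acid cycle genes had a median of 0.02, with fumarase (Fh1) at -0.92 past the threshold. The mitochondrially encoded subunits had a median of 0.06, with mt-Nd3 at 0.61 and mt-Atp8 at 0.56 past it, the regulators 0.06 with none past it, and the hypoxia response genes 0.23, with Bnip3 at 0.67 and the hexokinase gene Hk2 at 0.77 past it. Cmc1, Fh1, mt-Nd3, mt-Atp8, Bnip3 and Hk2 were named here because they passed the threshold, after their values were seen.

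Cells below all 3 thresholds had members at 3.70% of UMIs in both libraries, between the first 2 stages of neutrophil maturation. These cells were a mixed group, with basophil markers at 1977 and 1613 CPM (media control and deoxycholic acid). Their Elane stage markers summed to 6504 and 5370 CPM and their Ngp stage markers to 3484 and 4786 CPM. The median ratio of deoxycholic acid over media control there was -0.07, with 46 of 78 members (59.0%) below 0 and 32 above, beside 49.8% of all genes below 0. Of the members 3 (3.85%) were lower and 2 (2.56%) higher past the threshold, beside a background of 5.53% lower and 5.55% higher.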

How the data were processed

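Single-cell libraries of 2 groups of mouse bone marrow cultures were measured, media control and deoxycholic acid. The authors deposited raw UMI counts of every gene in every cell. Cell Ranger 6.0 is named per the submitters' processing notes, and the build, annotation and cell filters behind the counts were not given in the sources used here. Cells with at least 300 genes and at most 10% mitochondrially encoded UMIs were used. The automatic threshold of Scrublet (scanpy 1.11.5, each library apart) called 0.0110% and 0.0120% of cells doublets, so the top 6% by score were left out instead, in fact 6.27% and 6.80% because scores were tied. CPM are the UMIs of all cells in a library or stage over their total. Log2 ratios have exact binomial 95% intervals, computed with Python 3.11.15, numpy 2.4.6, pandas 2.3.3 and scipy 1.17.1. In simulated counts 100% of 200 genes changed 2-fold were recovered in each comparison. The simulation held counting error only, as the intervals assume, so it could not test variation between cells or libraries. A gene entered a comparison if its higher side held 20 CPM or more and 50 UMIs or more, and was counted as different past a log2 ratio of 0.5 between libraries or 1 between stages.

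The letters of the 4 samples per group are not in the cell names, so the tests planned for separate samples were not run. Members, lists and stage genes were chosen with earlier results of these data known. Members named are the 2 with the most CPM in each complex, the extremes of each comparison (6 lowest and 4 highest between libraries, 4 each between stages) and isoform pairs; others are named by role, after their values were seen. The single values of 1 member are not reported here. From each list the 2 genes with the most CPM are named. Transcript lengths and shared windows came from GENCODE vM21 (GRCm38), promoters from RefSeq (GRCm38.p6); 84 of 85 members had a length and 69 a promoter. Lithocholic acid, named in the culture design, was not analysed here. Alternatives concerned cell filters, totals, level filters, stage thresholds and the trend with length.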

Additional observations from a re-analysis of the deposited data

Results flagged for a closer look

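For 5 members the ratio of deoxycholic acid over media control lay on opposite sides of 0 in the Retnlg and the Elane stage, with both counting intervals away from 0. Ndufs6, an accessory subunit of complex I, had a log2 ratio of -0.30 in the Retnlg stage and 0.14 in the Elane stage. Ndufa7 was at -0.21 and 0.14, and Ndufb7 at -0.12 and 0.10. In complex IV, Cox7a2 was at -0.17 and 0.0345, and Cox6c at -0.12 and 0.0356. All these values are below the threshold of 0.5, and with 1 library per group the difference between stages was not tested. The same count was not made over all genes, so whether 5 members are more or fewer than the background is not known.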

How the results depend on the processing

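No paired analysis was possible because the replicate letters in the labels are not in the cell names. Fits with a replicate block and without each replicate in turn were not run for the same reason. The members' median ratio between libraries (-0.09) was -0.0648 without the 50 most abundant genes in the total. It was -0.14 with median-of-ratios scaling and 0.0186 with the length trend removed. With median-of-ratios scaling 1 member was higher past the threshold, beside 1.16% of all genes. With the trend removed 1 was lower (1.30%), beside 2.52% of all genes. The members' median ratio of the Retnlg over the Elane stage was -1.10 and -1.16 (media control and deoxycholic acid) without the 50 genes. It was -1.81 and -1.95 with median-of-ratios scaling, -3.49 and -3.37 in UMIs per cell, and -0.17 and -0.14 with the trend removed. With the trend removed 8 and 12 members were 2-fold lower (10.4% and 15.6%), beside 26.2% and 26.5% of all genes. Sign changes were counted only for named members that were at least 2-fold lower before the trend was removed, so changes from smaller ratios are not listed. Of such members, removing the trend turned the sign of 7 in the media control library: Atp5e 0.31, Atp5l 0.40, Cox6a1 0.63, Cox6b1 0.11, Cox6b2 0.12, Cox7a2 0.19 and Ndufa8 0.61. It turned 11 of them in the deoxycholic acid library: Atp5e 0.27, Atp5l 0.41, Cox4i1 0.52, Cox6a1 0.60, Cox6b1 0.15, Cox7a2 0.0633, Cox8a 0.0322, Ndufa3 0.71, Ndufa8 0.55, Sdhd 0.11 and Uqcrfs1 0.10. This setting takes the median of genes of like length from each ratio, and the cause of the trend was not tested. The other settings were cell filters, level filters, stage thresholds, means over cells or stages, and the total without mitochondrially encoded genes. Under these the medians lay between -1.77 and -1.60 for the stages and between -0.09 and -0.08 for the libraries over all cells. Stage thresholds entered the library comparison only within stages. There the medians ran from -0.05 (Elane stage, threshold 20) to -0.12 (Retnlg stage, threshold 20). Depth limits the Retnlg stage most, where complex II gave 635 and 336 UMIs.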
